A study of Mus musculus with 12 samples.

Results

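The enzymes that break down phenylalanine and tyrosine were examined in mouse yolk sac through 5 genes, Tat, Hpd, Hgd, Gstz1 and Fah. All probe sets that the platform annotation assigns to one of these genes alone were taken, which gave 6 probe sets of the 34945 with a single gene, and 5 genes of 18193. Hgd has a pair of probe sets and each other gene has 1. The genes were selected on the measured difference between Norrin and wild type at embryonic day 10.5 (E10.5), in which earlier work on these arrays had found Hgd strongly reduced, so the values of the 5 genes in that comparison are given as a description with no test.

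Whole yolk sac was profiled on Affymetrix arrays in 4 groups of 3: Norrin and wild type at E8.5, and Norrin and wild type at E10.5. Norrin samples came from Z/Norrin mice, in which a conditional allele makes Norrin, a secreted ligand of the receptor Frizzled4, where it is not normally made; the driver that switches the allele on is not given in the sources used here. All groups shared a C57Bl6/129 background and both sexes, and each array held pooled yolk sacs of 3 to 5 embryos, so replicates were separate pools. The study's question, going by its title, is which transcripts respond in this tissue when that pathway is driven. Values are log2 expression levels, and a difference of 1 is a doubling. Levels of different probe sets are not compared with one another, because each probe set has its own brightness. Some are set against the level of the median gene (7.68), as a rough guide only.

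Tyrosine is made from phenylalanine and then degraded in a fixed order of steps. Tyrosine aminotransferase (Tat) removes the amino group, 4-hydroxyphenylpyruvate dioxygenase (Hpd) makes homogentisate, homogentisate 1,2-dioxygenase (Hgd) opens its ring, maleylacetoacetate isomerase (Gstz1) rearranges the product, and fumarylacetoacetate hydrolase (Fah) splits it into fumarate and acetoacetate. The route is best known in liver and kidney, and loss of single steps causes inherited diseases in people, among them alkaptonuria (HGD) and tyrosinaemia (FAH); the endoderm of the yolk sac makes many proteins that the liver makes later.

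In RefSeq's mouse annotation (GRCm38.p6) they lie on 5 different chromosomes: Tat at chr8:109986078-109999804, Hpd at chr5:123171807-123182723, Hgd at chr16:37579742-37632026, Gstz1 at chr12:87147161-87164723 and Fah at chr7:84585159-84605942. The positions are those of the genes and not of the probes. The RefSeq promoter table (250 bases before to 50 after the start of a transcript) held all 5 genes, with 6 windows in all. The windows of Hgd and Fah are shown because these were the genes whose Norrin and wild type arrays did not overlap at either stage. Capitals mark matches to the motifs searched, on either strand. The windows are chr16:37579903-37580202 on the plus strand for Hgd and chr7:84605893-84606192 on the minus strand for Fah, both printed 5′ to 3′.
Hgd promoter: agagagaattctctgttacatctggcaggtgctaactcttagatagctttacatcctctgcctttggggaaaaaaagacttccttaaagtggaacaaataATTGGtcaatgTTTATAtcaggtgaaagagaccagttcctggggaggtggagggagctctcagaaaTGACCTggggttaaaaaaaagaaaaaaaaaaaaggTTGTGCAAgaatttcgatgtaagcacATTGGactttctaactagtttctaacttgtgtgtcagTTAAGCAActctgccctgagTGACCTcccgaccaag
Fah promoter: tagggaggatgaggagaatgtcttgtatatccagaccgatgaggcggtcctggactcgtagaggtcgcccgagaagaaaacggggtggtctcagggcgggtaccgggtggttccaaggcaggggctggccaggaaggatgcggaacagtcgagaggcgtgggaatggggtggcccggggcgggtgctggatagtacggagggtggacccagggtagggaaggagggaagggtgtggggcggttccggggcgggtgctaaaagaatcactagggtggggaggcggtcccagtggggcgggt

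The motifs searched on both strands were the TATA box (as TATAAA), the CCAAT box, GTTAAT (HNF1), AGGTCA (nuclear receptors), TGTTTNC (forkhead), TTGCNNAA (C/EBP), CTTTGAT (TCF/LEF), ACGTG (HIF core) and TGTTCT (glucocorticoid receptor). The Hgd window held 4 of the 9 motifs, and its matches do not overlap one another. TTGCNNAA matched there at 49 bases before the start and at 14 bases after it; 10.8% of the 32851 promoter windows in the table held this motif. The other matches in the Hgd window were to AGGTCA, which 16.3% of all windows held, to the CCAAT box, with 37.4%, and to the TATA box, with 13.6%. The Fah window held 0 of the 9 motifs, as did that of Hpd. The Tat window matched 2 motifs, the CCAAT box and the HIF core (19.6% of all windows), and each of the 2 Gstz1 windows matched the CCAAT box alone. A match is a run of letters and is not evidence of a bound site.

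Of 8 visceral endoderm genes listed as markers of the yolk sac's absorptive layer, all were measured and all lay above the level of the median gene on every array, with list means of 13.11 to 13.75. These means did not overlap between genotypes: 13.11 to 13.42 in Norrin against 13.55 to 13.67 in wild type at E8.5, and 13.25 to 13.37 in Norrin against 13.63 to 13.75 in wild type at E10.5. Of the 8, Apoa1 alone passed the test at E10.5 (log2 difference -0.78, limma adjusted p = 0.00677), and Afp, which encodes alpha-fetoprotein, differed by -0.05. At E8.5 Afp read 13.13, 12.99 and 14.14 in Norrin, against 14.52, 14.26 and 14.64 in wild type, a difference of -1.05 with groups apart (adjusted p = 0.234). In bulk tissue, fewer cells of a type and less RNA per cell cannot be told apart. The mean of 4 mesoderm genes was higher in Norrin at both stages, with 11.29 to 11.71 in Norrin and 10.88 to 11.14 in wild type at E8.5, and 12.12 to 12.26 in Norrin and 11.47 to 11.69 in wild type at E10.5. Of these 4, Pdgfra alone passed at E10.5 (1.89, adjusted p = 0.00651), and Col1a2, Col3a1 and Hand1 differed by 0.27, 0.14 and 0.15. At E10.5 the mean of 4 blood genes was lower, with 12.51 to 12.58 in Norrin and 13.07 to 13.62 in wild type. Klf1, Hbb-bh1 and Hba-x passed there, with -1.83, -0.58 and -0.57 (limma adjusted p = 0.00733, 0.0101 and 0.0196). Hbb-y did not pass and differed by -0.10. How far these lists account for any result below was not tested.

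Single arrays stood apart, and so did the Norrin group in Plac1, a trophoblast gene. At E8.5, the mean of the trophoblast list was 6.90, 8.49 and 7.46 in Norrin, against 6.80 to 7.05 in wild type, and Norrin replicate 2, the highest there, also had the lowest visceral endoderm mean (13.11). At E10.5, in wild type replicate 2, Alb (albumin) reached 12.85, against 8.82 and 9.06 in the other wild type arrays, while the Norrin arrays had 7.01, 8.01 and 7.15. The list of hepatocyte genes had 4 of 5 members measured, with means of 6.30 to 6.52 in Norrin and 6.75, 7.90 and 6.80 in wild type. Its members Cyp2e1 and Cyp3a11 stayed below the level of the median gene (7.68) on all 12 arrays. In Norrin replicate 2, the trophoblast gene Tpbpa reached 11.90, against 5.63 and 6.55 in the other Norrin arrays and 5.66 to 6.39 in wild type. The trophoblast list had 3 of 6 members measured, with means of 7.65, 10.03 and 7.79 in Norrin and 6.69 to 7.66 in wild type at E10.5. Plac1 was higher in all Norrin arrays than in wild type at both stages (1.14 at E8.5 and 1.47 at E10.5, limma adjusted p = 0.597 and 0.0756). Tpbpa and Ascl2 overlapped between genotypes. The mean of 3 decidua genes was 8.54 to 9.44 in Norrin and 8.22 to 8.52 in wild type at E10.5. Of these, Prl8a2 read 9.84, 7.24 and 10.23 in Norrin, against 6.98, 7.70 and 7.55 in wild type. Without Norrin replicate 2 of E10.5, Plac1 and Prl8a2 still stood apart between genotypes at that stage. Without wild type replicate 2 of E10.5, so did Alb. The trophoblast list means overlapped between genotypes at both stages, with or without Norrin replicate 2. At E10.5, differences of the 5 genes without these arrays, or ranges with each array left out in turn, are given below. For E8.5, those of Hgd and Fah without Norrin replicate 2 are given.

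At E10.5, the last 3 steps of the pathway read lower in Norrin yolk sacs, for Hgd by 1 probe set of its pair. Hgd was 6.63-fold lower by its probe set with the higher mean, while the other differed by -0.13. Fah and Gstz1 were each 1.63-fold lower. Tat and Hpd overlapped between the groups. Their group means lay below the level of the median gene (7.68), so whether these first steps differ is not settled. All 6 probe sets had a difference below 0, with a median of -0.53, against a median of 0.01 over all 34945 probe sets. The Norrin and wild type arrays did not overlap for 3 of the 6, with Norrin lower in each; the same was true of 10.3% of all probe sets, and since Hgd in this comparison chose the set, nothing is read from the share.

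Tat, the first step, stayed level. Its probe set 1451557_at read 6.56, 6.46 and 6.53 in Norrin E10.5, against 6.58, 6.55 and 6.45 in wild type E10.5. The groups overlapped, with a difference of -0.01 (SE 0.13), and of -0.05 to 0.02 with each array left out in turn. At E8.5 it read 6.34, 6.69 and 6.62 in Norrin, against 6.37, 6.55 and 6.79 in wild type. All 12 values lay between 6.34 and 6.79, below the level of the median gene.

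Hpd, the second step, overlapped between genotypes at both stages. Its probe set 1424618_at read 6.66, 6.66 and 6.63 in Norrin E10.5, against 6.63, 7.75 and 6.66 in wild type E10.5. One wild type array, replicate 2, was high, and it is the array with the high Alb; the other 5 arrays lay within 6.63 to 6.66. The difference was -0.36 (SE 0.25) with that array and 0.01 without it. With each array left out in turn it was -0.55 to 0.01. At E8.5 Hpd read 5.01, 5.21 and 5.40 in Norrin, against 5.01, 5.37 and 5.31 in wild type, and the groups overlapped.

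Hgd had the widest range of the 5 genes. Its probe set 1452986_at read 7.19, 8.17 and 7.49 in Norrin E10.5, against 10.23, 10.70 and 10.11 in wild type E10.5. The highest Norrin array lay below the lowest wild type array. The difference was -2.73 (SE 0.30), and it was -2.56 without wild type replicate 2 and -3.01 without Norrin replicate 2. At E8.5 the same probe set read 5.97, 6.29 and 6.41 in Norrin, against 6.61, 6.71 and 7.64 in wild type. The groups were again apart, with wild type replicate 3 the highest of the 6 arrays.

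The second Hgd probe set, 1458049_at, did not show that pattern. It read 7.09, 7.42 and 7.30 in Norrin E10.5, against 7.32, 7.47 and 7.41 in wild type E10.5, so the groups overlapped and the difference was -0.13 (SE 0.13). At E8.5 it read 6.69, 6.85 and 6.86 in Norrin, against 6.83, 7.08 and 7.20 in wild type. Over the 12 arrays it spanned 6.69 to 7.47, whereas 1452986_at spanned 5.97 to 10.70. Which part of the transcript either probe set reads is not given in the annotation used here, so the size of the Hgd difference rests on 1 probe set.

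Gstz1, the isomerase after Hgd, was read by 1427552_a_at. It had 9.71, 9.35 and 9.22 in Norrin E10.5, against 10.23, 10.23 and 9.94 in wild type E10.5. The groups did not overlap, and the difference was -0.71 (SE 0.35), and -0.85 to -0.60 with each array left out in turn. At E8.5 it read 8.62, 8.11 and 9.36 in Norrin, against 9.11, 8.21 and 9.61 in wild type. There the groups overlapped, and the arrays with replicate number 2 were the lowest of each genotype while those with number 3 were the highest.

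Fah, the last step, was lower in Norrin by a similar amount at both stages. Its probe set 1417220_at read 9.09, 9.53 and 8.97 in Norrin E10.5, against 9.94, 10.14 and 9.62 in wild type E10.5, a difference of -0.71 (SE 0.26) with no overlap. Without wild type replicate 2 the difference was -0.59, and without Norrin replicate 2 it was -0.87. At E8.5 it read 7.02, 7.66 and 8.07 in Norrin, against 8.11, 8.11 and 8.69 in wild type. The groups were also apart there, but the highest Norrin array (8.07) came close to the lowest wild type array (8.11).

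**Figure D1:**
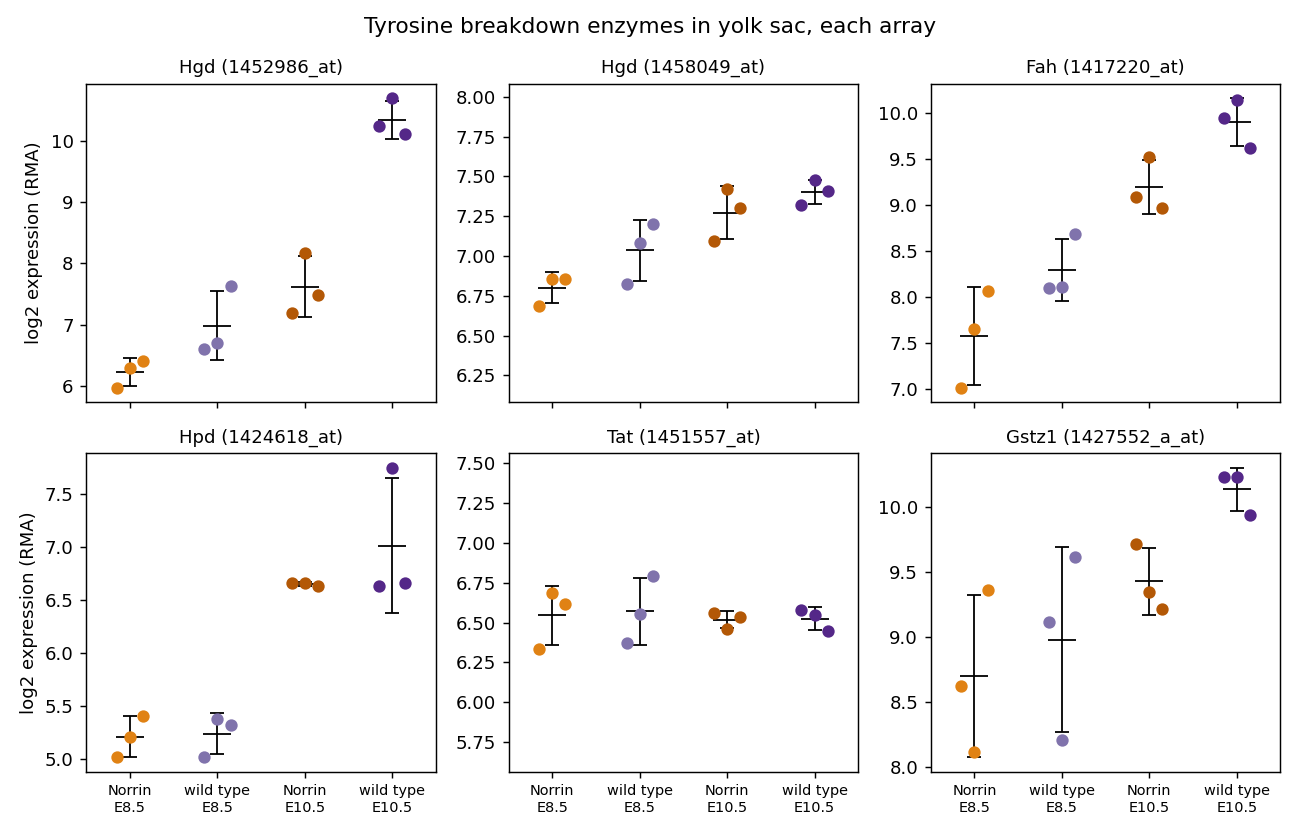
Log2 expression (y axis) of the 6 probe sets of Hgd, Fah, Hpd, Tat and Gstz1, with 1 panel per probe set; each point is 1 array, and the dash and bar are the mean and SD of a group of 3, Norrin left of wild type within each stage; panels differ in their y range. Hgd 1452986_at separates Norrin from wild type at E10.5 by more than any other panel, and the wild type E10.5 array at 7.75 stands alone for Hpd.

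The E8.5 arrays allowed a test, and no member passed it over all probe sets. With limma over all 12 arrays, 0 of 6 probe sets passed an adjusted p of 0.05, as did only 0.0458% of all probe sets (16). At an unadjusted p under 0.05 there were 2 of 6, Hgd 1452986_at and Fah, against 6.49% of all probe sets. These were also the 2 of 6 whose Norrin arrays all lay below wild type, against 5.5% of all probe sets. The median difference of the 6 was -0.26, against -0.01 over all probe sets.

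Fah differed by -0.72 at E8.5 (95% interval -1.29 to -0.15, limma adjusted p = 0.694), a 1.65-fold lower level in Norrin. Without Norrin replicate 1 it was -0.44 and without Norrin replicate 3 it was -0.96. Hgd 1452986_at differed by -0.76 (-1.41 to -0.11, adjusted p = 0.731), a 1.69-fold lower level, and by -0.43 without wild type replicate 3. Without Norrin replicate 2, the array with the higher trophoblast genes, Fah differed by -0.76 and Hgd by -0.79. Same-numbered Norrin and wild type arrays deviated together, and with the replicate number as a block the adjusted p became 0.0426 for Fah and 0.0695 for Hgd. With that block 0.816% of all probe sets passed. So the call for Fah at E8.5 depends on the pairing of the arrays. For the other probe sets the intervals were -0.52 to 0.05 for Hgd 1458049_at, -1.03 to 0.47 for Gstz1, -0.57 to 0.52 for Hpd and -0.32 to 0.26 for Tat, which leave room for changes of either sign.

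**Figure D2:**
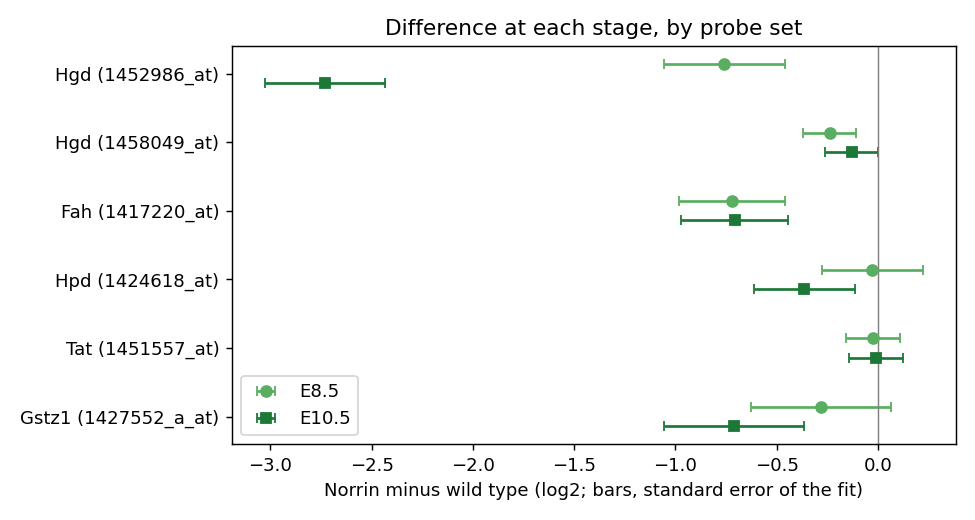
Log2 difference, Norrin minus wild type (x axis), for each of the 6 probe sets (rows) at E8.5 and at E10.5, with bars of 1 standard error from the limma fit over 12 arrays; the line at 0 is no difference. Hgd 1452986_at lies at -0.76 at E8.5 and -2.73 at E10.5, whereas Fah lies at -0.72 and -0.71.

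Between stages, Hgd had the largest difference of the members in wild type, and Tat was the one member whose level was not higher at E10.5. Each stage had been normalized in a run of its own, so a stage difference cannot be told apart from one between runs, and the median gene was 0.14 higher at E10.5 in wild type and 0.15 higher in Norrin; the values here are relative to that median. In Norrin yolk sacs, Hgd 1452986_at was 1.24 higher at E10.5 than at E8.5, against 3.23 higher (9.37-fold) in wild type. For Fah the stage difference was 1.46 in Norrin and 1.47 in wild type. Hpd stood 1.30 higher in Norrin and 1.65 higher in wild type, and Gstz1 stood 0.58 higher in Norrin and 1.02 higher in wild type. Hgd 1458049_at was 0.32 higher in Norrin and 0.23 higher in wild type, and Tat was -0.18 in both.

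The E10.5 arrays all lay above the E8.5 arrays for 4 of 6 probe sets in Norrin and 5 of 6 in wild type, against 36.7% of all probe sets in Norrin and 33.1% in wild type. Gstz1 was the one that overlapped between stages in Norrin but not in wild type. Ordered by level, Hgd 1452986_at ran from Norrin E8.5 (6.23 ± 0.23, SD, n = 3) through wild type E8.5 (6.98 ± 0.57) and Norrin E10.5 (7.62 ± 0.50) to wild type E10.5 (10.35 ± 0.31). The arrays of wild type E8.5 and Norrin E10.5 overlapped, and those of the other neighbours in this order did not.

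The genes whose array pattern was most like that of Hgd were found by the mean absolute difference of log2 values over the 12 arrays, each gene first centred on its mean in each stage. Hgd spanned 3.50 on this scale, and the other members spanned under 2, so no such genes were sought for them. The nearest were Adh1, an alcohol dehydrogenase, at 0.160, Cebpa, a transcription factor of liver and fat, at 0.181, Abcb1a, a drug efflux pump, at 0.184, Serpina1c, a secreted protease inhibitor, at 0.213, and Slc22a8, an organic anion carrier, at 0.226. The median over all genes was 0.879. The same 5 genes were nearest when wild type E10.5 replicate 2 was left out.

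These genes were picked for their likeness to Hgd, so their E10.5 levels are a description. Adh1 read 7.99, 8.39 and 7.59 in Norrin E10.5, against 10.50, 11.08 and 10.43 in wild type. Abcb1a read 6.11, 6.60 and 5.82 in Norrin, against 8.84, 9.19 and 8.55 in wild type. Like Hgd, both were highest in replicate 2 of each genotype at this stage. Serpina1c differed by -2.65 and Slc22a8 by -2.22 at E10.5, and neither overlapped between genotypes.

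**Figure D3:**
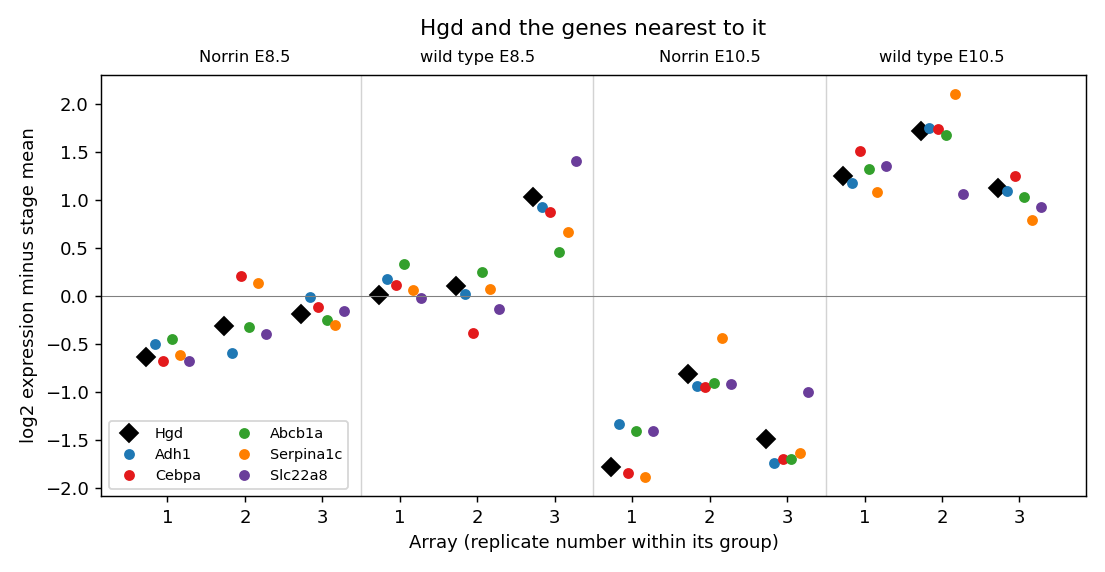
Log2 expression minus the gene's mean in that stage (y axis) for Hgd and the 5 genes nearest to it, on each of the 12 arrays (x axis, grouped with Norrin left of wild type within a stage). At E10.5 all 6 genes lie below 0 in the 3 Norrin arrays and above 0 in the 3 wild type arrays.

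The rest of the pathway was read from 5 lists of neighbouring enzymes and carriers, 43 of whose 48 genes were measured. These lists, and those of other amino acids and regulators below, were chosen with earlier results of these data known. Their counts, set beside the shares of all genes, are thus a description and no independent support. At E8.5, 0 of the 43 passed with limma, 4 had an unadjusted p under 0.05 (7.22% of all genes did), and 1 (Maob, lower) passed with the replicate block; 0.077% of all genes passed at this stage, and 1.41% with the block. At E10.5, 5 fell with Norrin and 0 rose, against 2.22% of all genes lower and 1.85% higher. The median difference of the 43 at E10.5 was -0.08, against -0.004 over all genes. With the block, 11 fell and 2 rose at E10.5, where 13.2% of all genes passed. Without Norrin replicate 1 or Norrin replicate 3 of E10.5 the count of 5 became 1, without wild type replicate 1 of E10.5 it became 2, and without wild type replicate 2 or 3 of E10.5, wild type replicate 2 of E8.5 or Norrin replicate 1 or 2 of E8.5 it became 3.

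Kyat1 and Kyat3, kynurenine aminotransferases that can also transaminate aromatic amino acids, fell at E10.5. Kyat3 read 7.29, 7.44 and 7.30 in Norrin, against 8.40, 7.92 and 7.98 in wild type, a difference of -0.75 (SE 0.15, limma adjusted p = 0.0171). Kyat1 differed by -0.66 (SE 0.13, adjusted p = 0.0138), and its 3 other probe sets gave -0.56, -0.29 and -0.05. They were 2 of the 9 measured enzymes that act on tyrosine or its keto acids; 7 did not pass. Among these, Got2, the mitochondrial aspartate aminotransferase, differed by -0.41 (adjusted p = 0.0755, and 0.014 with the block) and Fahd1, an enzyme related to Fah, by -0.52 (adjusted p = 0.109), both with groups apart. Il4i1, a secreted amino acid oxidase, had -0.35 (adjusted p = 0.54).

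Downstream of Fah, 1 of 8 measured genes that use fumarate or acetoacetate fell. Fh1, which hydrates fumarate in the citric acid cycle, differed by -0.46 at E10.5 (SE 0.11, adjusted p = 0.0413), and it missed the threshold in 13 of the 20 alternative settings run. Bdh1, which interconverts ketone bodies, differed by -1.26 (SE 0.42, adjusted p = 0.148) and its groups overlapped. Its other probe set, which was not used in the fit over genes, differed by -0.68 (SE 0.17). At E8.5 Bdh1 differed by -0.74 (adjusted p = 0.729).

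Of 9 carriers of aromatic amino acids, 2 fell at E10.5. Slc43a2, a facilitated carrier of large neutral amino acids, read 9.29, 9.58 and 9.61 in Norrin, against 10.76, 10.56 and 10.31 in wild type. That is a 2.07-fold lower level (difference -1.05, SE 0.16, adjusted p = 0.00343), and its other probe sets gave -0.87 and -0.94. Slc6a19, a sodium-coupled carrier of neutral amino acids best known from gut and kidney, differed by -0.57 (SE 0.14, adjusted p = 0.0465), and its call was lost in 12 of 19 settings. At E8.5 Slc6a19 differed by -0.52 (adjusted p = 0.384, and 0.0504 with the block), with groups apart at both stages.

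In the fit without the block, 0 genes of the remaining 2 lists passed; other settings called up to 4 of one list, at E8.5 with array weights. Phenylalanine entry and tetrahydrobiopterin supply had 7 of 9 genes measured. Here the probe set mattered for Qdpr at E10.5. The one used in the fit over genes differed by -0.36 with groups apart (adjusted p = 0.518), and the other by -0.69 (SE 0.14). Pts, which makes a precursor of tetrahydrobiopterin, differed by -0.39 at E10.5 (adjusted p = 0.254, and 0.0207 with the block), and Pcbd1, which helps to recycle it, by -0.41 (adjusted p = 0.394, and 0.0165 with the block). Among 10 measured genes of the catecholamine, melanin and other routes from tyrosine, Maob, an amine oxidase, differed by -1.06 at E8.5 (adjusted p = 0.673, and 0.0302 with the block). At E10.5 Maob differed by -0.63 (adjusted p = 0.66, and 0.0482 with the block). Dct, of melanin synthesis, was the highest of the list at E10.5 with 0.49 (adjusted p = 0.233, and 0.0233 with the block), and its groups overlapped.

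Other named genes of these lists did not pass at E8.5. Pcbd2, a paralogue of Pcbd1, differed by 0.32 (adjusted p = 0.729) and Qdpr, which regenerates tetrahydrobiopterin, by -0.13 (0.891). Fahd2a, named for its likeness to Fah, differed by -0.21 (0.829), Aldh3a1, an aldehyde dehydrogenase, by -0.28 (SE 0.11, 0.654) with groups apart, and the amino acid carrier Slc38a4 by 0.41 (0.832).

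Enzymes that break down other amino acids gave a wider comparison, with 39 of 42 measured. At E10.5, 7 fell and 0 rose, against 2.22% of all genes lower and 1.85% higher. With the block 15 fell and 2 rose, where 13.2% of all genes passed. Their median difference was -0.27. At E8.5, 0 passed with limma (0.077% of all genes did), 8 had an unadjusted p under 0.05 (7.22% of all genes), and 5 fell with the block (1.41% of all genes passed). The count of 7 at E10.5 was also 7 without wild type replicate 2, and was 5 to 9 over all arrays left out in turn.

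Of the enzymes between tryptophan and NAD, Kmo, Kynu and Haao fell at E10.5, and Tdo2 and Afmid, the first steps, did not pass. Haao read 8.08, 8.33 and 8.38 in Norrin, against 10.30, 10.22 and 9.79 in wild type, a 3.58-fold lower level (adjusted p = 0.00646). Kmo, upstream of it, differed by -1.28 (SE 0.18, adjusted p = 0.00273) and Kynu by -1.04 (SE 0.21, adjusted p = 0.0159), although a second Kynu probe set gave 0.03. Tdo2, which opens the tryptophan ring, differed by -0.34 at E10.5 (adjusted p = 0.72), and Afmid by -0.36 (adjusted p = 0.209, and 0.0428 with the block). Tdo2 differed by -1.06 at E8.5 (adjusted p = 0.323, and 0.0322 with the block). At E8.5 Kynu read 6.66, 6.54 and 7.14 in Norrin, against 8.04, 7.72 and 8.23 in wild type, with groups apart and a difference of -1.22 (adjusted p = 0.0779, and 0.0115 with the block).

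The others that fell belong to lysine, histidine and valine breakdown. Aass, the first enzyme of lysine breakdown, read 8.92, 9.66 and 9.65 in Norrin, against 11.13, 11.03 and 11.29 in wild type, a 3.34-fold lower level (adjusted p = 0.00255). Amdhd1, a step of histidine breakdown, differed by -1.12 (SE 0.19, adjusted p = 0.00633), but its second probe set by -0.18. Ftcd, which finishes that route, read 7.18, 7.16 and 7.11 in Norrin, against 8.27, 8.68 and 7.73 in wild type. Hibch, of valine breakdown, differed by -0.67. Prodh2 and Aldh4a1, of proline and hydroxyproline breakdown, differed by -1.06 and -0.99 with groups apart. They did not pass without the block but did with it (limma adjusted p = 0.000593 and 0.00136). They were among the 15 of this list that fell with the block, against 2 that rose. Bhmt, which remethylates homocysteine, and Uroc1, also of histidine breakdown, did not pass; both were highest in wild type replicate 2 (9.59 and 10.55). Uroc1 differed by -0.56 (SE 0.25, adjusted p = 0.329, and 0.0476 with the block), while its second probe set, which was not used in the fit over genes, differed by -1.66 (SE 0.17).

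**Figure D4:**
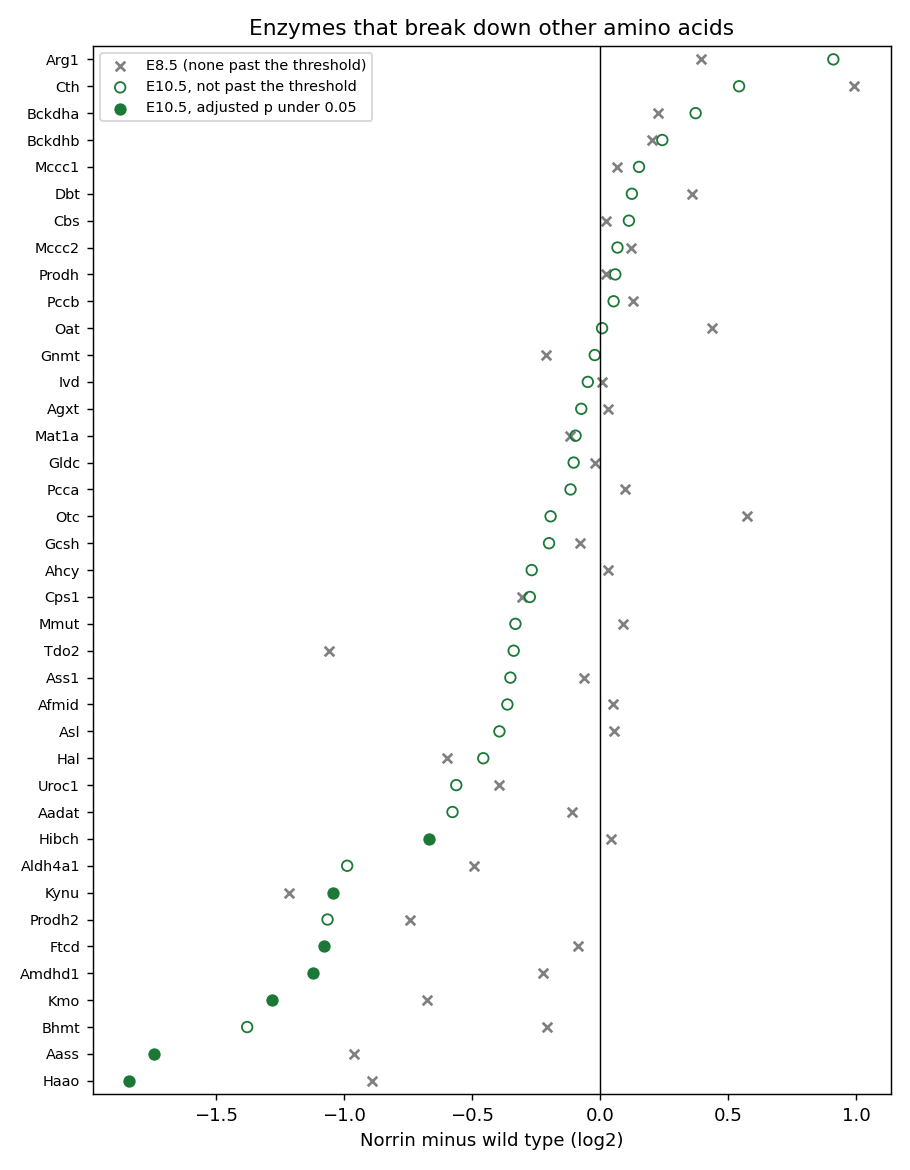
Log2 difference, Norrin minus wild type (x axis), of the 39 measured enzymes of other amino acid breakdown (rows, in order of the E10.5 difference); crosses are E8.5, circles E10.5, and filled circles passed the limma threshold at E10.5. The 7 filled circles all lie below 0, the lowest being Haao at -1.84.

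Of 12 transcription regulators known to act on such enzymes in liver, 10 were measured, and 3 fell at E10.5, against 2.22% of all genes lower (the count was also 3 without wild type replicate 2, 2 without wild type replicate 1 or Norrin replicate 2, and 4 with the block, with which 13.2% of all genes passed). This list too was chosen with earlier results known, so nothing is read from these shares. Cebpa, a leucine zipper factor, read 7.43, 8.33 and 7.57 in Norrin, against 10.78, 11.01 and 10.51 in wild type, a 7.95-fold lower level. Cebpa was also picked above for its likeness to Hgd on these arrays. Its E10.5 level is thus a description, and its place among the 3 is no support. Nr1h4, the bile acid receptor, read 6.34, 6.95 and 6.12 in Norrin, against 8.68, 8.53 and 8.26 in wild type, a 4.06-fold lower level (adjusted p = 0.000633). Hnf4a, an orphan nuclear receptor of endoderm, differed by -0.71 (SE 0.14, adjusted p = 0.0149), and its 3 other probe sets by -0.87, -0.86 and -0.50. Ppara, a fatty acid receptor, differed by -0.85 with groups apart (adjusted p = 0.0709, and 0.0093 with the block). Its other probe sets, which were not used in the fit over genes, differed by -1.14 (SE 0.13) and -0.37 (SE 0.14).

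At E8.5, 0 of these 10 regulators passed with limma (0.077% of all genes did), 1 had an unadjusted p under 0.05 (7.22% of all genes), and 0 passed with the block (1.41% of all genes). Cebpa read 6.38, 7.26 and 6.93 in Norrin, against 7.17, 6.67 and 7.93 in wild type, so the groups overlapped, with a difference of -0.40. Whether Cebpa bears on Hgd was not tested. Nr1h4 differed by -0.55 (adjusted p = 0.673) and Cebpb, a relative of Cebpa, by -0.66 (adjusted p = 0.707). The change of the Norrin effect between stages was tested for the 92 measured list genes in the fit over all genes. Among them 0 passed, while 0.0934% of all genes did. The lowest adjusted p (limma) was 0.0677, for Cebpa, which was also picked from these arrays by its likeness to Hgd. A Norrin effect past the threshold at E10.5 alone is thus not shown to differ from that at E8.5.

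**Figure D5:**
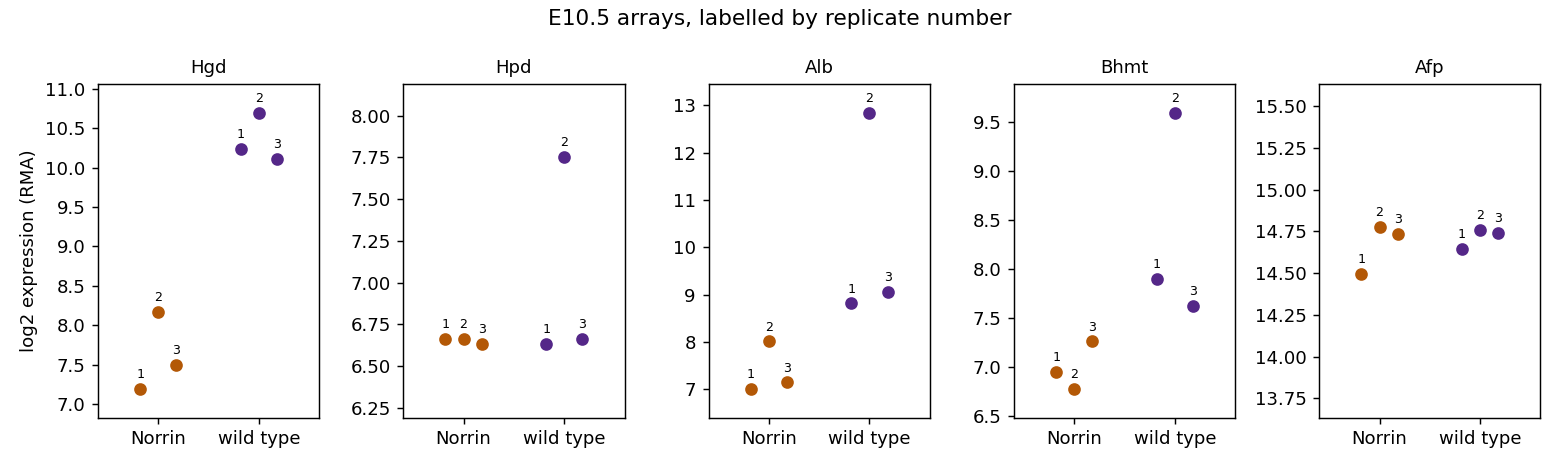
Log2 expression (y axis, 1 panel per gene) of Hgd, Hpd, Alb, Bhmt and Afp on each E10.5 array, the 3 Norrin arrays left of the 3 wild type arrays. Alb, Bhmt and Hpd peak in wild type replicate 2 (12.85, 9.59 and 7.75), while Hgd separates all Norrin from all wild type arrays.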

How the data were processed

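Total RNA of pooled yolk sacs was hybridised to 12 arrays. The values the authors deposited are log2 levels; the submitters' processing notes name RMA, with no version. RMA corrects background, quantile-normalizes and summarises the probes of a probe set, and the table holds no detection calls. Arrays within a stage shared 26 to 93 identical values per pair and arrays of different stages 0, so each stage was normalized separately. Array medians were 6.59 to 6.73 at E8.5 and 6.97 to 7.01 at E10.5, and arrays of a group correlated at 0.975 to 0.992; the number of arrays limits the precision.

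Of 45101 probe sets, 34945 had 1 gene in the platform annotation, 932 several, 9160 were unnamed here and 64 were controls; 34741 matched RefSeq by gene ID. A gene was read by its probe set with the highest mean. Differences were tested with limma 3.58.1 in R 4.3.3, 1 mean per group over 12 arrays, two-sided, Benjamini-Hochberg adjusted over 18193 genes, or 34945 probe sets for members, at 0.05. The procedure was tested on simulated data for the E8.5 comparison, with noise drawn independently for each array. That simulation held no shared deviation of same-numbered arrays. Members, lists, motifs and tests were chosen with earlier results of these data known. Named were all member probe sets, the 4 genes per list past the threshold with the largest change at each stage (2 where none passed), regulators apart at E10.5 and the 5 genes nearest Hgd; other genes were named after their values were seen. Same-numbered arrays deviated together within a stage (correlations 0.318 to 0.73 at E8.5 and 0.209 to 0.506 at E10.5), and each correlated best with its own number, so the replicate number was fitted as a block as an alternative. Other alternatives were other scalings, probe set choices, a filter on dim genes, a fit per stage, array weights and leaving out each array.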

Additional observations from a re-analysis of the deposited data

How the results depend on the processing

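Aass, Amdhd1, Cebpa, Fh1, Haao, Hnf4a, Kmo, Kyat1, Kyat3, Nr1h4, Slc43a2 and Slc6a19 kept the direction of their E10.5 difference in every setting run. Hgd 1452986_at kept a difference of -3.01 to -2.52 at E10.5 and -0.95 to -0.43 at E8.5 over 18 settings. With the replicate block the counts of genes called rose to 257 at E8.5 and 2400 at E10.5, against 14 and 741, and those of the neighbouring pathway to 1 and 13, against 0 and 5. Array weights gave 5147 and 2316 genes, and 16 and 15 of the pathway. A fit to the stage alone gave 0 genes at E8.5. With genes at or above the median level only, 472 genes passed at E10.5 and 2 of the pathway, fewer genes being tested, and with all probe sets tested 3 of the pathway. Leaving out 1 array at a time gave 1 to 20 genes at E8.5 and 353 to 894 at E10.5, the lowest without Norrin replicate 2 of E8.5 and Norrin replicate 3 of E10.5; the pathway counts were 0 to 0 and 1 to 5. Median centring split the E8.5 calls into 9 higher and 2 lower, against 10 and 4. Differences that turned sign had not passed in the fit without block or array weights. Hpd at E8.5 was 0.0082 with centring and 0.0459 with quantile normalization (-0.138 to 0.0696 leaving out an array). Tat at E8.5 was 0.0098 with centring, 0.0123 with quantile normalization and 0.11 with array weights (-0.127 to 0.0839). Cebpb at E8.5 was 0.11 with array weights. Leaving out an array gave -0.667 to 0.0374 for Gstz1, -0.351 to 0.0373 for Qdpr, -0.0676 to 0.697 for Slc38a4 and -0.401 to 0.0668 for Fahd2a, all at E8.5. With array weights Qdpr passed as lower and Slc38a4 as higher at E8.5 (limma adjusted p = 0.029 and 0.00193). Fh1 missed the threshold in 13 settings, Slc6a19 in 12, and Hnf4a, Kyat1 and Kyat3 in 3 each. The cause was not tested.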
